A study of Mus musculus with 16 samples.

Results

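Gene-body methylation of long cadherin and catenin genes was followed through 16 libraries of mouse MII oocytes. The members were 9 of the 21938 protein-coding genes of the GENCODE M21 annotation: the delta-catenin gene Ctnnd2, the alpha-catenin genes Ctnna2 and Ctnna3, the classical cadherin genes Cdh2, Cdh4, Cdh8, Cdh12 and Cdh18, and the atypical cadherin gene Cdh13. Cdh13 and Ctnnd2 were selected on their gene-body and 50-kb methylation, which had been seen to differ between the IFC and SOA groups, and the other 7 were added as family members of long span. The value of a gene in a library was the mean of the methylation percentages of its covered CpG positions. A difference is the first group named minus the second, in percentage points. All libraries were made from pools of oocytes of C57BL/6J X CBA/Ca F1 females. The p-values of limma and of exact permutation tests therefore measured the spread between pools. Those of the logistic tests treated calls as independent and left that spread out.

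The 4 groups differed in how the oocytes were obtained. IFC (in vitro follicle culture, n = 4) oocytes had grown to MII inside preantral follicles taken from prepubertal females and kept in culture. The labels give an age of 23 days, whereas the study describes younger donors whose follicles were cultured up to that age. The medium held recombinant FSH, and hCG with EGF was the ovulatory stimulus. SO (superovulation prepubertal, n = 5) oocytes were ovulated by 23-day-old females after injections of eCG and hCG. SOA (superovulation adult, n = 4) oocytes were ovulated by 10-week-old females after both hormones at a larger dose, so age and dose changed together between SO and SOA. IV (in vivo, n = 3) oocytes came from naturally ovulating 10-week-old females without hormones. SOA vs IV thus set superovulation against natural ovulation at a shared age. IFC vs SO set follicle culture against superovulation, and both used gonadotropins.

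Cadherins are calcium-dependent adhesion molecules of the cell surface. Classical cadherins span the membrane and bind catenins with their cytoplasmic tail: delta-catenins attach close to the membrane, beta-catenin attaches near the end of the tail, and alpha-catenins link beta-catenin to actin. Cdh13 encodes T-cadherin, which lacks that tail and is held in the membrane by a lipid anchor. In growing oocytes, methylation is laid down mainly over transcribed gene bodies, and most CpG-rich transcription starts remain unmethylated. Many genes of this family are best known from the nervous system, and expression in these oocytes was not analysed here.

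The members spanned 220.4 to 1574 kb, compared with a median of 17.4 kb over all protein-coding genes, and each was longer than at least 96.0% of them. Ctnna3 was the longest member and Cdh2 the shortest. Exons covered 0.459% (Ctnna3) to 3.66% (Cdh2) of a gene, so the gene-body values were mostly intronic. Cdh13 (11.2 CpGs per kb) and Cdh4 (12.2) were richer in CpGs than the genome as a whole (8.02), and Cdh12 (4.95), Cdh8 (5.05), Cdh18 (5.40) and Ctnna2 (5.48) were poorer.

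Sequences directly before 3 first starts are shown because they carried little methylation next to the gene bodies behind them, and that before an internal start of Ctnna3 is shown because it was methylated. RefSeq promoter entries (GRCm38.p6) were found for 6 of the 9 members, and Cdh13, Cdh2 and Cdh4 had none. Below are the 250 bases before a RefSeq start of Ctnnd2 (chr15:30172284-30172533, plus strand), Cdh8 (chr8:99416472-99416721, minus strand) and Ctnna3 (chr10:63429848-63430097, plus strand), followed by the 250 bases before an internal Ctnna3 start 391 kb into the gene (chr10:63820805-63821054, plus strand), in the direction of transcription with each CpG in capitals.
Ctnnd2: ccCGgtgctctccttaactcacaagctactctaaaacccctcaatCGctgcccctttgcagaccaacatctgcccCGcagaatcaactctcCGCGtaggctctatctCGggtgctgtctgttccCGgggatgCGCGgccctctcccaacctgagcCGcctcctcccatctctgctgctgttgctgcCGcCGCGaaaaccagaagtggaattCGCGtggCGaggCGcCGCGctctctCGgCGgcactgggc
Cdh8: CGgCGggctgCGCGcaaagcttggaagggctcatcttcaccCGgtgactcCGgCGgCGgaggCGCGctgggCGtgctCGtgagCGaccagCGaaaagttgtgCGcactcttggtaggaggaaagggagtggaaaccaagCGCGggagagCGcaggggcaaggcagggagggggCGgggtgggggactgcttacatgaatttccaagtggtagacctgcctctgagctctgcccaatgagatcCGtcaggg
Ctnna3: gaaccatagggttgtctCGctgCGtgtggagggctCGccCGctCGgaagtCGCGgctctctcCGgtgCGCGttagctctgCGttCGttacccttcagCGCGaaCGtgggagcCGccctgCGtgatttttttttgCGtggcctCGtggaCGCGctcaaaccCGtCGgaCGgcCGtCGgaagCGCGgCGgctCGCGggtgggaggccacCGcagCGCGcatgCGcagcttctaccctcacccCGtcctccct
Ctnna3 internal: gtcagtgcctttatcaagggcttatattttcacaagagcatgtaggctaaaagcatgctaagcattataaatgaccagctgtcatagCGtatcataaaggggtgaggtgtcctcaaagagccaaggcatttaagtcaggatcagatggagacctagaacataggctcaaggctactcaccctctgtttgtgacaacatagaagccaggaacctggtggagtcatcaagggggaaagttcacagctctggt
The windows held 21 CpGs in Ctnnd2, 20 in Cdh8 and 36 in Ctnna3, and 1 at the internal Ctnna3 start. Over 32851 windows of the same kind, 16.3% held at least 21 CpGs, 17.9% at least 20 and 2.58% at least 36. With all libraries pooled, 3 of 220 calls were methylated in the Ctnnd2 window (1.36%, 95% Wilson interval 0.465 to 3.93%), 3 of 229 in the Cdh8 window (1.31%, 0.447 to 3.78%) and 10 of 569 in the first Ctnna3 window (1.76%, 0.957 to 3.20%), which was highest in SO (6 of 97, 6.19%, 2.87 to 12.8%). The single CpG of the internal Ctnna3 window was methylated in 10 of 10 calls (100%, 72.2 to 100%). Intervals cover counting error only, since calls were reads without molecular identifiers.

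In the 1000 bp before the first annotated start, pooled methylation was at most 2.08% in every member. It was 0.885% in Cdh13 (2 of 226 calls), 2.08% in Ctnnd2 (9 of 433), 1.04% in Ctnna2 (5 of 483), 1.64% in Ctnna3 (17 of 1038), 2.02% in Cdh2 (8 of 396), 1.45% in Cdh4 (5 of 345) and 1.02% in Cdh8 (4 of 391). Cdh12 had 0 of 163 methylated calls, with a Wilson upper limit of 2.30%, and Cdh18 had 0 of 34, with an upper limit of 10.2%. Starts inside the genes were not all alike. The 1000 bp before the Ctnna3 start at 391 kb were 90.8% methylated (99 of 109 calls), those before the Cdh4 start at 451 kb 96.5% (219 of 227) and those before the Cdh2 start at 139 kb 100% (32 of 32), whereas the protein-coding Cdh12 start at 662 kb stood at 0.690% (2 of 290).

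**Figure D1:**
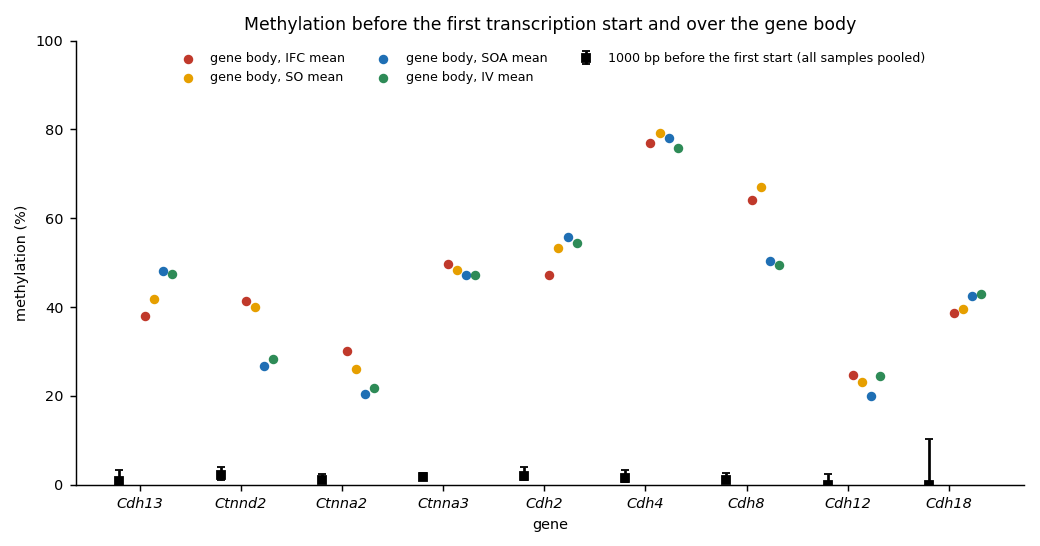
Methylation (%, y axis) of the 9 genes (x axis): black squares give the pooled calls of all libraries in the 1000 bp before the first start, with 95% Wilson intervals, and coloured points give the group means of the gene body. All squares lie at or below 2.08%, and the gene-body means range from 20.0% (Cdh12, SOA) to 79.1% (Cdh4, SO).

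Depth limited the precision and was partly tied to group. The libraries held 5218053 to 23065411 calls, and the 9 libraries under 10 M calls were all 4 IFC, 2 SO and 3 SOA libraries. All IV libraries were above 10 M calls, so depth and group changed together in IFC vs IV. A gene body of a member had 371 (Cdh2) to 10039 (Cdh13) covered positions in a library, and the 95% Wilson interval of its pooled calls was 1.57 to 9.61 points wide. Libraries of a group correlated over 100-CpG tiles with r of 0.933 to 0.976 (25 pairs). Every library had many tiles above 80% (23.0 to 26.7% of tiles) and many below 20%, the pattern of an oocyte. IV1 stood apart, with 32.4% of tiles below 20% (39.5 to 44.9% in the others) and a mean of 15.6% in tiles that were low elsewhere (6.71 to 10.96% in the others). Calls against IV are therefore also given without IV1. This is done beside the call for gene bodies, beside the call or in the counts for bins, and as counts for tiles.

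The group means of Ctnnd2, Ctnna2, Ctnna3 and Cdh8 were lower in the 2 adult groups than in IFC and SO, and those of Cdh13, Cdh2 and Cdh18 were higher. Ctnna3, Cdh4, Cdh12 and Cdh18 had group means within 5 points of each other. The SD around the group means, pooled over groups, was 2.06 to 3.76 points per gene. Tests for Cdh13 and Ctnnd2 are given for SO vs IV alone, because each other comparison used IFC or SOA, the groups that had chosen them. SO vs IV also set superovulation against natural ovulation, so age and hormone treatment changed together there. The libraries of SO vs IV were other than those of IFC vs SOA, but both comparisons set oocytes of prepubertal females against those of adults. Counts of calls in these 2 genes are therefore not read against the shares of all features. The remaining 5 comparisons are given for these 2 genes as values.

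**Figure D2:**
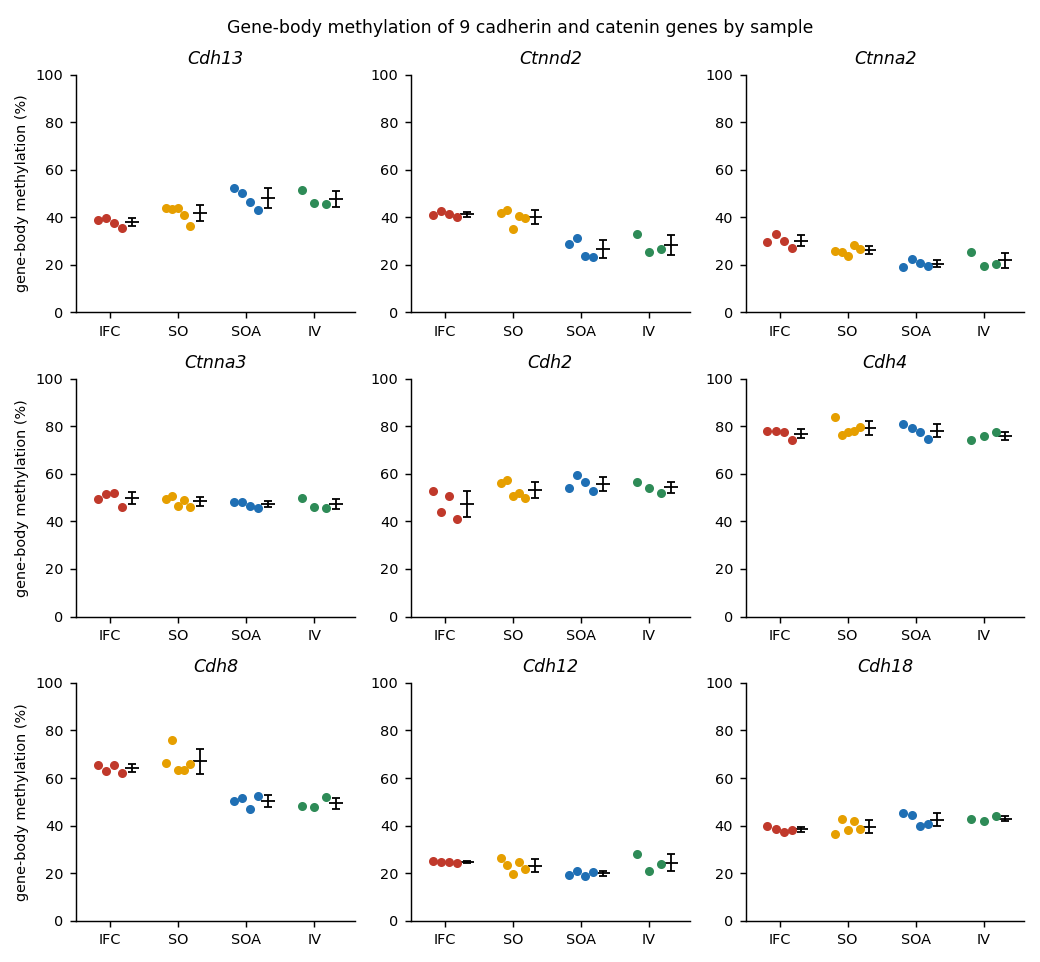
Gene-body methylation (%, y axis) in each library of the 4 groups (x axis), 1 panel per gene. Points are libraries and the black bars give mean and SD. For Cdh8 and Ctnnd2 all IFC and SO points lie above all SOA and IV points.

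In limma fits over 14356 gene bodies, with Benjamini-Hochberg adjustment over all of them at 0.05, Cdh8 was higher in SO than in SOA, the 1 call among 7 members (1.56% of all gene bodies were called). Ctnna2 and Cdh8 were higher in IFC than in SOA, 2 of 7 (3.71% of all), and higher in IFC than in IV, 2 of 7 (2.82% of all). Ctnnd2 and Cdh8 were higher in SO than in IV, 2 of 9 (0.822% of all). Ctnnd2 had been chosen from IFC vs SOA, and Cdh8 was the 1 call among the 7 members that had not been chosen. In IFC vs SO limma called 0 of 7 members (0.432% of all), 2 had an unadjusted p under 0.05 and a logistic test of the calls called 5 (23.9% of all). In SOA vs IV it called 0 of 7 (0.00% of all), 0 had an unadjusted p under 0.05 and the logistic test called 2 (31.2% of all). That test, which treats calls as independent, called 29.3% of all gene bodies in SO vs SOA, 34.4% in IFC vs SOA, 38.0% in SO vs IV and 41.7% in IFC vs IV. Among the 997 testable genes of at least 200 kb, which the members belong to by length, 4.41% were called in SO vs SOA, 8.93% in IFC vs SOA, 2.71% in SO vs IV and 7.02% in IFC vs IV. The comparisons share groups and are not independent of each other. The median difference of the members tested was -1.02 points in IFC vs SO (0.627 over all gene bodies), 1.23 in SO vs SOA (-0.146), -0.102 in SOA vs IV (1.02), 2.59 in IFC vs SOA (0.477), 1.13 in SO vs IV (0.840) and 1.04 in IFC vs IV (1.52).

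Cdh13 (chr8:118283733-119324921, plus strand) was less methylated in IFC than in the adult groups, with SO in between. Its values were 39.0, 39.7, 37.7 and 35.5% in IFC, 44.0, 43.6, 44.1, 41.0 and 36.2% in SO, 52.5, 50.2, 46.6 and 42.8% in SOA, and 51.4, 45.9 and 45.4% in IV. Every IFC library was below every SOA and IV library, SO overlapped with IFC and SOA, and SO did not overlap with IV. IFC vs SOA, the contrast that had chosen the gene, differed by -10.0 ± 2.48 points (SE), and IFC vs IV by -9.56 ± 2.68. SO vs SOA differed by -6.25 ± 2.35, IFC vs SO by -3.77 ± 2.35 and SOA vs IV by 0.466 ± 2.68. In SO vs IV the difference was -5.79 ± 2.56 points (adjusted p = 0.536, limma), which did not pass. The groups were fully separated, which gives the smallest p that 5 against 3 libraries can reach (p = 0.0357, exact permutation test). Without IV1 the difference was -3.86 points.

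Along Cdh13, separate stretches carried the separate group differences. The 50-kb bins were counted from the annotated start. Between 50 and 200 kb, IFC (35.8% ± 0.737, SD, n = 4) and SO (31.9% ± 7.18, n = 5) were low and SOA (53.8% ± 6.05, n = 4) and IV (50.9% ± 4.62, n = 3) high. The SO libraries stood there at 35.1, 35.5, 39.7, 27.7 and 21.7% and the IV libraries at 56.2, 48.7 and 47.9%, so SO and IV did not overlap. In SO vs IV, the bins at 50, 100 and 150 kb were lower by limma, 3 of 21 bins (2.70% of 13102 bins of long genes were called). Their differences were -13.7 ± 3.00 (adjusted p = 0.0195), -21.8 ± 5.16 (0.0311) and -22.9 ± 4.82 points (0.0139). Without IV1 the differences were -11.6, -17.9 and -19.8 points and none of the 3 passed (adjusted p = 0.116, 0.186 and 0.101). Between 250 and 750 kb the level of SO (62.4% ± 4.40) was instead near those of SOA (68.0% ± 4.70) and IV (64.8% ± 2.18), and IFC was lower (51.4% ± 2.62), with libraries at 53.1, 53.8, 50.5 and 48.0%. The last stretch, from 750 kb to the end, was low in all groups, at 17.4, 15.6, 15.9 and 20.1% in IFC, SO, SOA and IV. These stretches, and those described below for other members, were drawn after the bins had been seen and were not tested as such.

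The bin at 300 kb of Cdh13 shows the second stretch at a single place. IFC libraries had 73.8, 69.9, 60.2 and 65.8%, and SO libraries had 89.3, 85.2, 84.3, 79.1 and 83.1%. No IFC library reached the SO values there. Counted over the gene, 4 bins of Cdh13 had all IFC libraries below all SO libraries (2.60% of all bins) and 1 had them above (1.82%). For SO vs SOA, 3 bins had SO wholly below SOA (2.30%). For IFC vs SOA, 10 bins had IFC wholly below (5.24%) and 1 wholly above (7.98%), and for IFC vs IV 14 bins had IFC wholly below (6.53%). The shares of all bins stand as background alone, and nothing is read from any of these counts, since each used the IFC or SOA values that had chosen the gene. The antisense transcripts Gm45721 and Gm45720 are annotated 323 to 332 kb into Cdh13, within the second stretch. The 50-kb bins before Cdh13 had group means of 38.5 to 97.3%. They were 88.1 to 97.3% from 450 to 50 kb before the gene, 38.5 to 45.3% in the bin next to it and 49.4 to 53.8% in the farthest bin, and the median range between group means was 3.20 points over the 10 bins before the gene.

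Ctnnd2 (chr15:30172593-31029341, plus strand), the neural delta-catenin that binds the membrane-near part of cadherin tails, had the opposite order. Its values were 41.1, 42.7, 41.3 and 39.9% in IFC, 41.9, 42.9, 35.1, 40.6 and 39.7% in SO, 28.6, 31.1, 23.9 and 23.2% in SOA, and 33.0, 25.3 and 26.6% in IV. All IFC and SO libraries were above all SOA and IV libraries, IFC and SO overlapped, and so did SOA and IV. In SO vs IV the difference was 11.7 ± 2.47 points (SE, adjusted p = 0.0361, limma), in a fit whose SE also rests on the spread within IFC and SOA, and a fit to SO and IV alone did not pass (adjusted p = 0.111). The libraries of SO and IV were fully separated, which gives the smallest p of the exact permutation test (0.0357). Without IV1 the difference was 14.1 points (adjusted p = 0.0241). The call was also lost with only the libraries above 10 M calls (10.2 points, adjusted p = 0.269), with pooled calls (0.0617), thinned libraries (0.0633), a replicate block (0.0704) or a minimum of 5 positions (0.0525), and when any of SO1, SO2, SO4, SO5, IV2 or IV3 was left out (10.2 to 11.8 points). As values, IFC vs SOA differed by 14.5 ± 2.39 points, SO vs SOA by 13.3 ± 2.27, IFC vs IV by 13.0 ± 2.58, IFC vs SO by 1.22 ± 2.27 and SOA vs IV by -1.59 ± 2.58.

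In Ctnnd2 the group means of IFC and SO lay above those of SOA and IV through most of the gene. This is a description of bins that include the IFC and SOA values that had chosen the gene. From 50 to 750 kb the mean was 43.6% ± 1.97 in IFC, 41.8% ± 2.64 in SO, 26.7% ± 4.36 for SOA and 28.3% ± 4.06 for IV, while from 750 to 850 kb it was 21.4, 17.8, 17.4 and 18.3%. In SO vs IV, 3 of 17 tested bins were higher: 21.0 ± 3.40 points at 200 kb (adjusted p = 0.00194), 18.2 ± 3.49 at 500 kb (0.00705) and 19.4 ± 3.58 at 700 kb (0.00534), all by limma. Without IV1 they were 22.3, 21.0 and 21.7 points and still passed (adjusted p = 0.00807, 0.00945 and 0.011). At 200 kb the SO libraries had 38.2, 50, 34.3, 42.4 and 39.1% and the IV libraries 22.4, 16.4 and 20.6%. The lowest SO library was above the highest IV library in 9 of the tested bins (6.53% of all bins). SO was also wholly above SOA in 9 bins (4.53% of all bins), IFC wholly above IV in 11 (10.2%), IFC wholly above SOA in 9 (7.98%), and no bin separated IFC from SO. These last counts used the IFC or SOA values that had chosen Ctnnd2, and nothing is read from them against the shares of all bins. The bins before the start of Ctnnd2 had group means of 4.40 to 21.2%. The antisense gene 4930570B17Rik lies 424.5 to 454 kb into Ctnnd2 and 9630009A06Rik 788.7 to 790.3 kb into it. The former spans parts of the bins at 400 and 450 kb, and the latter lies in the bin at 750 kb.

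**Figure D3:**
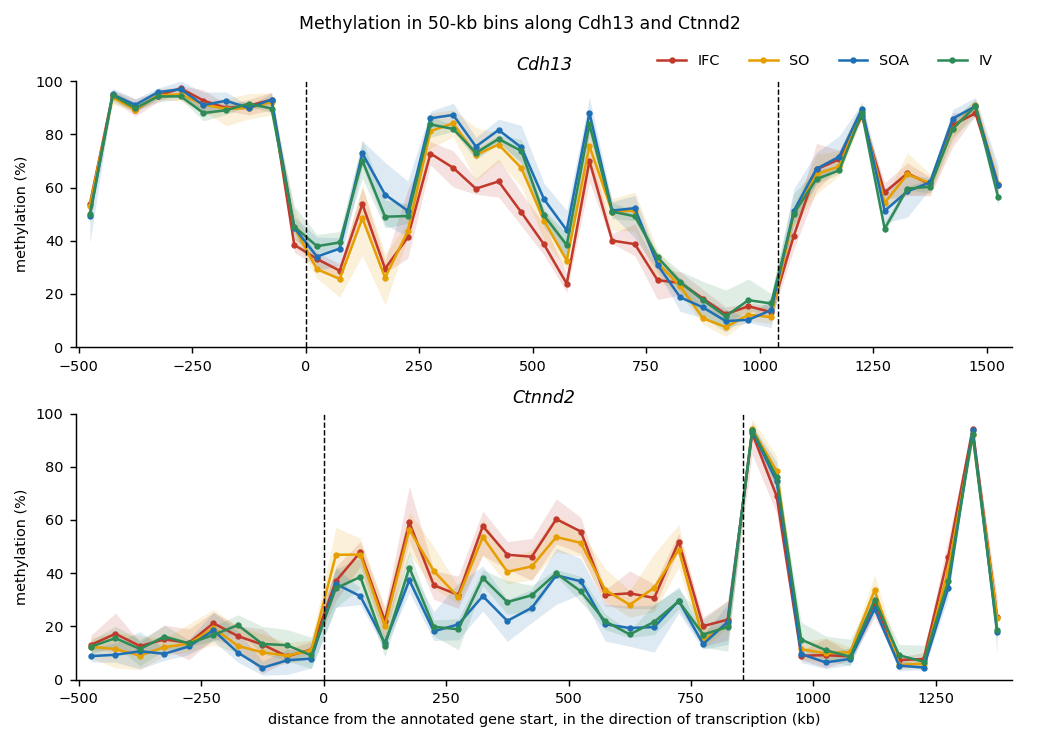
Methylation (%, y axis) in 50-kb bins of Cdh13 and Ctnnd2 and 500 kb on each side against distance from the gene start (kb, x axis). Lines are group means, shading runs from the lowest to the highest library, and dashed lines mark the ends of the gene. In Cdh13, IFC and SO run together below the adult groups at 50 to 200 kb (35.8 and 31.9% against 53.8 and 50.9%) and IFC alone runs lower at 250 to 750 kb (51.4%). In Ctnnd2, IFC and SO (43.6 and 41.8%) run above SOA and IV (26.7 and 28.3%) from 50 to 750 kb.

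Ctnna2 (chr6:76881637-77979699, minus strand) encodes the neural alpha-catenin. Its gene-body values were 29.8, 32.9, 30.2 and 27.2% in IFC, 25.7, 25.5, 23.9, 28.4 and 26.7% in SO, 19.1, 22.4, 20.9 and 19.5% in SOA, and 25.4, 19.7 and 20.3% in IV. IFC was the highest group and did not overlap with SOA or IV, SO was in between and overlapped with IFC, and IV1 was above the other adult libraries. IFC vs SOA differed by 9.52 ± 1.88 points (adjusted p = 0.00911, limma) and IFC vs IV by 8.21 ± 2.04 (0.0431), or 10.0 points without IV1 (0.0188). The IFC vs IV call was lost under several alternatives (adjusted p up to 0.210), and the IFC vs SOA call was lost among libraries under 10 M calls (9.20 points, adjusted p = 0.0901) and in a fit to the 2 groups alone (0.0562). SO vs SOA, at 5.55 ± 1.79 points, did not pass (adjusted p = 0.192, limma). Its libraries did not overlap, which gives the smallest p that 5 against 4 libraries can reach (p = 0.0159, exact permutation test). The share of all gene bodies separated in this way was not counted.

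In Ctnna2 the widest differences lay at 100 to 300 kb, and bins further in were also called. At 100 to 300 kb the mean was 54.0% ± 2.78 in IFC, 45.2% ± 4.44 in SO, 27.9% ± 3.07 for SOA and 29.6% ± 4.09 for IV, and at 700 to 1000 kb it was 11.9, 11.01, 7.26 and 10.3%. The bin at 100 kb had 52.2, 57.8, 50 and 53.6% in IFC, 44.1, 37.8, 39.4, 42.8 and 49.3% in SO, 19.2, 25, 22.7 and 28.1% in SOA, and 24.4, 24.7 and 26.8% in IV. The order IFC, SO, then the adult groups was free of overlap at this bin, and limma called it in IFC vs SO (10.7 ± 2.46 points, adjusted p = 0.0370), SO vs SOA (18.9 ± 2.46, 0.000226), IFC vs SOA (29.7 ± 2.59, 2.6e-06) and SO vs IV (17.4 ± 2.67, 0.0013; 16.9 points without IV1, 0.00978). The largest group difference of any bin in the 9 genes was at 200 kb, 37.8 ± 4.56 points in IFC vs SOA. Of 22 bins, 7 were higher in IFC than in SOA (9.41% of all bins were called) and 7 higher in IFC than in IV (6.86%), 6 of the latter also without IV1, and none was lower. They included bins at 400, 500 and 650 kb in IFC vs SOA and at 400 and 650 kb in IFC vs IV, and the bin at 650 kb was the second of 2 called in IFC vs SO (9.60 points, adjusted p = 0.0341, limma). The gene Lrrtm1, a synaptic adhesion gene on the opposite strand 722 to 737 kb into Ctnna2, lies outside these bins.

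Ctnna3 (chr10:63430098-65003667, plus strand), the alpha-catenin known from heart muscle, had similar gene-body means of 49.8% ± 2.61 in IFC, 48.4% ± 2.001 in SO, 47.2% ± 1.24 for SOA and 47.3% ± 2.22 for IV, and limma called no comparison (the logistic test called its 3 comparisons of IFC with another group). Within it, bins differed in opposite directions. At 0 to 150 kb, IFC (19.4% ± 2.31) and SO (20.4% ± 1.69) were below SOA (32.1% ± 3.82) and IV (28.3% ± 6.27). IV1 stood at 35.2% there and IV2 and IV3 at 26.8 and 22.9%. Limma called no Ctnna3 bin as lower in SO or IFC than in IV. The SO libraries ranged over this stretch from 18.2 to 21.8% and the SOA libraries from 28.4 to 36.8%. By bin, SO was wholly below SOA at 0 and 50 kb (2.30% of all bins were so), and the libraries overlapped at 100 kb. In SO vs SOA the bins at 0 and 50 kb were lower, by -13.8 ± 2.66 (adjusted p = 0.00549, limma) and -16.6 ± 3.97 points (0.0217). At 900 to 1300 kb the order was the reverse, with 33.2% ± 3.83 in IFC, 27.8% ± 3.91 in SO, 22.5% ± 1.80 for SOA and 24.5% ± 3.10 for IV. In IFC vs SOA, 4 bins were higher (900, 1050, 1200 and 1450 kb, by 9.58 to 16.6 points) and 2 lower (50 and 100 kb, by -19.7 and -12.1 points) of 32 (9.41% of all bins). The stretch from 150 to 650 kb was highly methylated in all groups, at 83.0, 81.7, 81.9 and 80.5% in IFC, SO, SOA and IV. It holds the internal start shown above and most of Lrrtm3, a synaptic adhesion gene annotated on the opposite strand from 498 to 660.2 kb.

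Cdh8 (chr8:99024471-99416471, minus strand), a type II cadherin, was called in every comparison of IFC or SO with an adult group. Its values were 65.5, 63.1, 65.6 and 62.3% in IFC, 66.4, 75.9, 63.2, 63.3 and 66.1% in SO, 50.4, 51.7, 47.0 and 52.4% in SOA, and 48.2, 48.0 and 52.1% in IV. The lowest IFC or SO library was above the highest adult library, and SO2 was well above the other SO libraries. SO vs SOA differed by 16.6 ± 2.45 points (adjusted p = 0.00272, limma; p = 0.0159, exact permutation test), SO vs IV by 17.6 ± 2.67 (0.00545), IFC vs SOA by 13.8 ± 2.58 (0.00623) and IFC vs IV by 14.7 ± 2.79 (0.00896). IFC vs SO differed by -2.84 ± 2.45 points and SOA vs IV by 0.966 ± 2.79, with overlapping libraries. Without IV1 the SO vs IV difference was 17.0 points (adjusted p = 0.0256) and the IFC vs IV difference 14.1 (0.0378). Without IV2 the calls against IV just missed the threshold (adjusted p = 0.0560 and 0.0581), as did both calls against SOA among libraries under 10 M calls (21.5 points and 0.0724 for SO, 14.4 points and 0.0538 for IFC) and the SO vs IV call among those above (14.8 points, 0.0720).

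In Cdh8 the first 250 kb carried the difference. They stood at 77.7% ± 1.79 in IFC, 78.7% ± 5.75 in SO, 57.5% ± 1.47 for SOA and 56.1% ± 3.54 for IV, whereas the stretch from 300 kb to the end was at 14.4, 16.6, 11.8 and 11.7%. The bin at 100 kb had 91.7, 84.4, 88.9 and 93.2% in IFC, 90.9, 92.3, 86.7, 86.2 and 82.6% in SO, 70.0, 63.0, 53.5 and 61.9% in SOA, and 62.7, 57.4 and 56.99% in IV. All IFC and SO libraries were above 80% there and all adult libraries at or below 70.0%. The 4 bins starting at 0 to 150 kb were higher in SO than in IV, by 23.4 ± 4.89, 27.7 ± 3.28, 28.7 ± 3.26 and 20.3 ± 3.63 points (adjusted p = 0.0135, 0.000138, 9.9e-05 and 0.00404, limma), 4 of 8 bins (2.70% of all bins). Without IV1 the first of them did not pass (20.4 points, adjusted p = 0.0965) and the other 3 did. The bins before the start had group means of 8.60 to 40.9%. The sense-overlapping transcript Gm15680 is annotated across the start of Cdh8, reaching 19.3 kb into it.

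**Figure D4:**
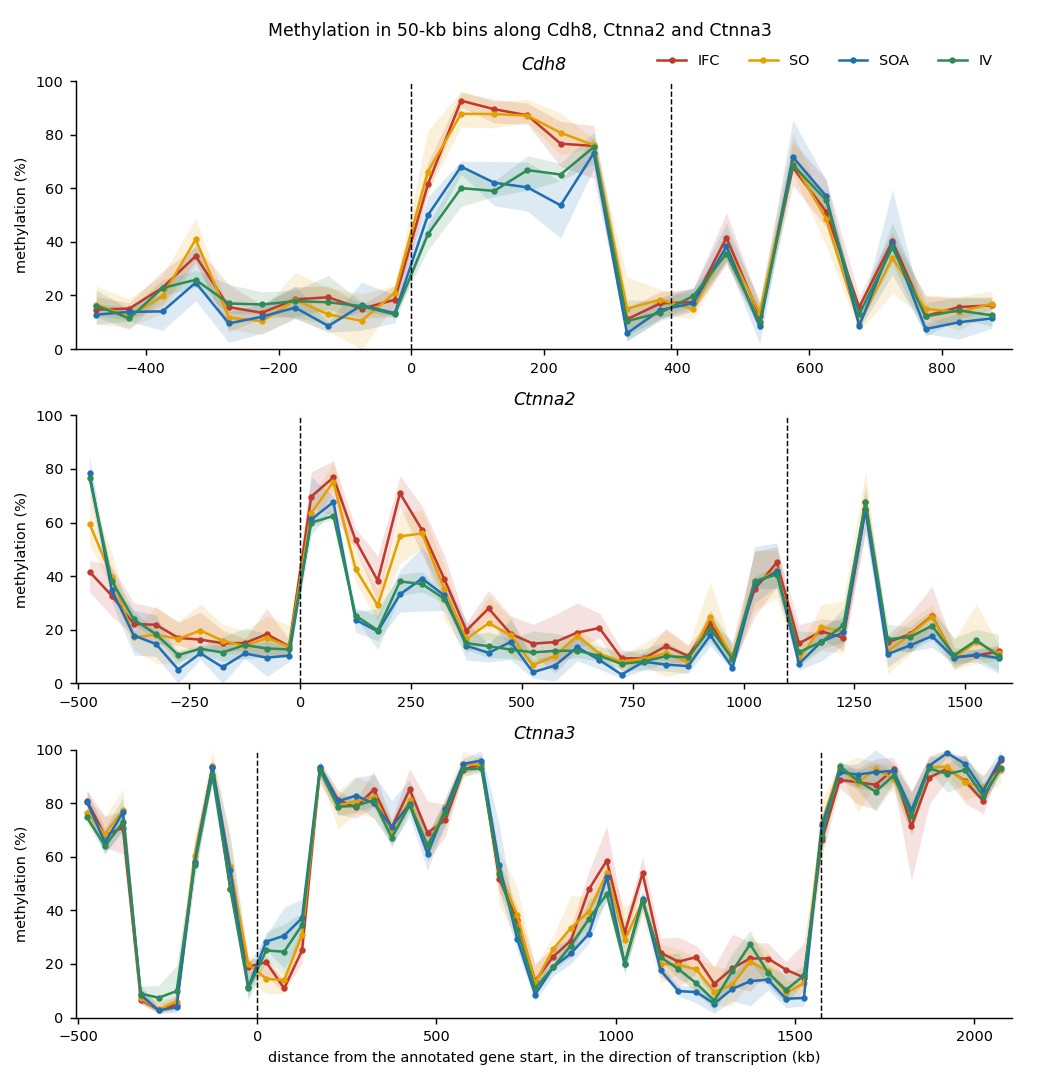
Methylation (%, y axis) in 50-kb bins of Cdh8, Ctnna2 and Ctnna3 and 500 kb on each side against distance from the gene start (kb, x axis), with group means as lines and the range of libraries as shading. IFC and SO run above SOA and IV in the first 250 kb of Cdh8 (77.7 and 78.7% against 57.5 and 56.1%). In Ctnna2 the order IFC, SO, adult appears at 100 to 300 kb. In Ctnna3 SOA runs higher than IFC and SO at 0 to 150 kb, where the IV libraries are widely spread (22.9 to 35.2%). At 900 to 1300 kb the means of both adult groups are lower.

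Cdh2 (chr18:16588877-16809246, minus strand) encodes N-cadherin, a type I cadherin. Its gene-body values were 53.0, 44.2, 50.5 and 41.2% in IFC, 56.0, 57.3, 50.7, 52.0 and 49.96% in SO, 54.1, 59.6, 56.7 and 52.9% in SOA, and 56.7, 54.2 and 52.0% in IV. The IFC libraries were the most spread and IFC1 reached into the ranges of the other groups, and the whole gene was not called (IFC vs SOA, -8.62 ± 2.73 points, adjusted p = 0.112, limma). It was called with centring on the library mean (-9.01 points, adjusted p = 0.0341), with a minimum of 100 positions (0.0448) and by the logistic test. The 50-kb bin 100 kb into the gene was called in all 3 comparisons of IFC with another group. It had 75.4, 64.1, 72.0 and 56.5% in IFC, 89.9, 80.2, 85.6, 85.8 and 82.1% in SO, 95.5, 88.3, 88.1 and 87.0% in SOA, and 86.0, 89.2 and 88.7% in IV. IFC was below all other groups there, by -17.7 ± 3.26 points vs SO (adjusted p = 0.00836), -22.7 ± 3.43 vs SOA (0.000321) and -21.0 ± 3.71 vs IV (0.00167; -22.0 points without IV1, 0.00666). The bin at 150 kb was also lower in IFC than in SOA (-10.8 ± 2.47, adjusted p = 0.0094).

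Cdh18 (chr15:22549022-23474418, plus strand), a type II cadherin, also had an early bin that was lower in IFC. Its gene-body means were 38.6% ± 1.05, 39.6% ± 2.65, 42.5% ± 2.85 and 42.9% ± 1.05 in IFC, SO, SOA and IV, without a call by limma (the logistic test called IFC vs SOA, SO vs IV and IFC vs IV). The bin at 50 kb had 47.0, 50.4, 39.6 and 42.7% in IFC, 62.7, 67.1, 68.1, 70.8 and 60.0% in SO, 74.1, 78.8, 75.6 and 74.2% in SOA, and 65.3, 63.5 and 76.1% in IV. IFC was lowest without overlap, and SOA lay above SO. The IFC difference was -20.8 ± 2.93 points vs SO (adjusted p = 0.000943, limma), -30.7 ± 3.08 vs SOA (9.1e-06) and -23.4 ± 3.33 vs IV (0.000276; -24.9 points without IV1, 0.00118). The bin at 200 kb was lower in IFC than in SOA as well (-17.2 ± 4.57, adjusted p = 0.0239). A stretch from 350 to 650 kb was low in all groups, at 11.3, 11.9, 8.95 and 13.0%.

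Cdh4 (chr2:179442431-179899373, plus strand; R-cadherin, type I) and Cdh12 (chr15:20449265-21589533, plus strand; type II) were the members without a gene body or a bin called by limma in any comparison, whereas the logistic test of the calls called Cdh4 in 3 comparisons and Cdh12 in 5. Cdh4 was the most methylated member in every group, with 76.9% ± 1.78 in IFC, 79.1% ± 2.94 in SO, 78.2% ± 2.65 for SOA and 75.8% ± 1.70 for IV. Its 50-kb bins had group means of 58.3 to 95.9%, and those of a bin differed by at most 6.46 points. Cdh12 was among the least methylated, with 24.8% ± 0.289, 23.2% ± 2.57, 20.0% ± 0.993 and 24.4% ± 3.63 in the same order. Its IFC libraries (24.4 to 25.1%) lay above its SOA libraries (19.0 to 21.1%), a difference of 4.76 ± 1.902 points that did not pass over all genes (adjusted p = 0.243, limma). The separation gives the smallest p that 4 against 4 libraries can reach (p = 0.0286, exact permutation test), and the share of all gene bodies so separated was not counted. The unmethylated internal starts of Cdh12 at 661 and 662 kb lay in a bin at 6.24 to 8.48%.

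**Figure D5:**
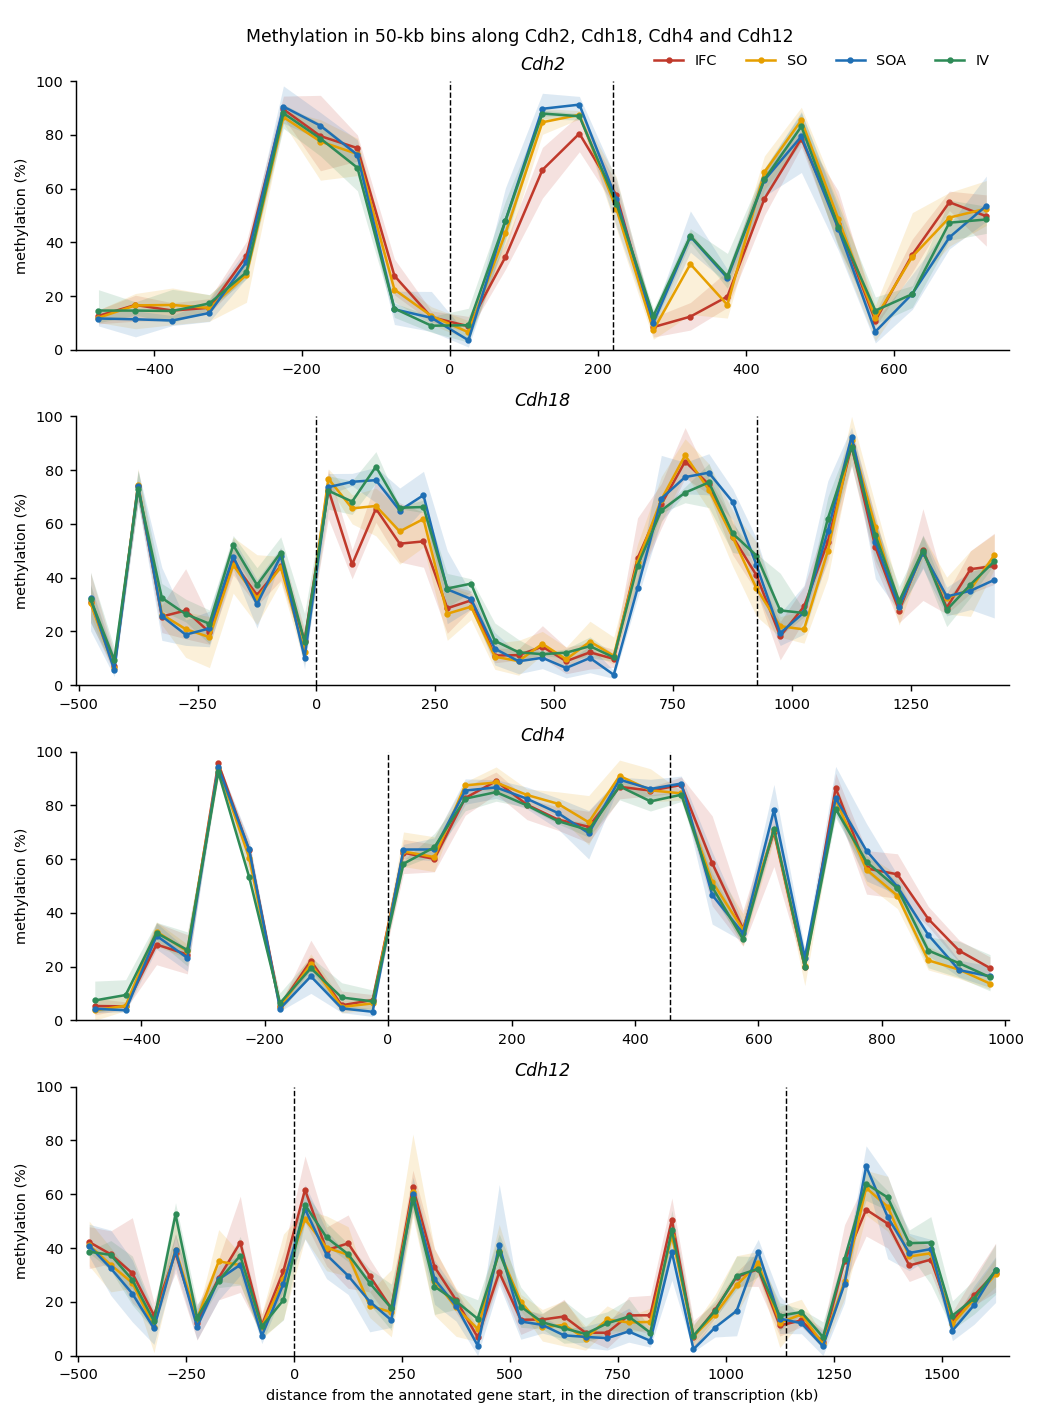
Methylation (%, y axis) in 50-kb bins of Cdh2, Cdh18, Cdh4 and Cdh12 and 500 kb on each side against distance from the gene start (kb, x axis), with group means as lines and the range of libraries as shading. IFC dips below the other groups at 100 kb in Cdh2 and at 50 kb in Cdh18. The Cdh4 lines stay within 6.46 points of each other inside the gene.

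The tested bins were 22 in Ctnna2, 32 in Ctnna3, 4 in Cdh2, 9 in Cdh4, 8 in Cdh8, 23 in Cdh12 and 18 in Cdh18. Cdh13 had 21 and Ctnnd2 17. Counted over bins, limma called 5 bins of 7 members in IFC vs SO (1.50% of all bins): 3 higher in IFC, in Ctnna2 and Ctnna3, and 2 lower, in Cdh2 and Cdh18. That count was 2 without IFC4, SO1, SO2 or SO3, 3 without IFC1, IFC2, IFC3 or SO4, and 1 in a fit to the 2 groups alone. In SO vs SOA it called 9 bins of 7 members (4.53% of all), 7 of them higher in SO. In IFC vs SOA it called 21 (9.41%), and in IFC vs IV 14 (6.86%), of which 11 were also called without IV1, and 7 bins were called without IV2 and 9 without IV3. Those lost without IV1 were the bins at 50 kb of Ctnna2, 0 kb of Cdh8 and 1050 kb of Ctnna3 (adjusted p = 0.128, 0.168 and 0.0978, limma). In SO vs IV limma called 11 bins of the 9 members (2.70%), 3 in Cdh13, 3 in Ctnnd2, 1 in Ctnna2 and 4 in Cdh8. The 7 of them outside Cdh13 and the first bin of Cdh8 were also called without IV1. Cdh13 and Ctnnd2 had been chosen from IFC vs SOA, so the count of 11 is not read against that share. In SOA vs IV no bin of any gene was called (0.00%), where 862 of 13102 bins had an unadjusted p under 0.05.

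Tiles of 100 CpGs were tested with a logistic model of the calls and a limit of 20 points on the difference, which treats calls as independent. In SO vs IV this test called 36 tiles of the 9 members (1.60% of all tiles). They were 9 of 117 tiles of Cdh13, lower and starting 82.3 to 179.8 kb into the gene, 11 of 72 tiles of Ctnnd2, higher and spread from 3.58 to 735 kb, 10 of 21 tiles of Cdh8, higher, and 3 of 60 tiles of Ctnna2, higher. Ctnna3 (104 tiles), Cdh4 (57) and Cdh18 (45) had 1 each, and Cdh2 (18) and Cdh12 (55) had 0. Cdh13 and Ctnnd2 had been chosen from IFC vs SOA, so the count of 36 is not read against the share of all tiles. Without IV1 the logistic test called 41, with 6 in Cdh13, 13 in Ctnnd2, 11 in Cdh8 and 7 in Ctnna2. With a minimum of 20 positions it called 19, and limma called 7. The largest difference was in a Cdh13 tile at 91.6 kb, with 40.8% in SO and 83.0% in IV. Among the other 7 members the logistic test called 5 tiles in IFC vs SO (1.12% of all), 20 in SO vs SOA (1.87%), 31 in IFC vs SOA (3.83%) and 26 in IFC vs IV (3.52%). With a minimum of 20 positions it called 2, 1, 4 and 11 in the same order. Limma called 0 in IFC vs SO and 12 each in SO vs SOA and in IFC vs IV. Without IV1 the logistic test called 27 in IFC vs IV. In SOA vs IV it called 1 (0.351%), a tile of Ctnna3, and 3 without IV1.

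Split by sequence, the differences were present in introns and in CpG-poor positions, and the few exonic and CpG-dense positions did not all follow them. In Cdh8, SO minus IV was 18.5 points in introns, 18.2 outside soft-masked repeats and 14.3 inside them. In Ctnnd2 it was 12.3 in introns, 12.1 outside repeats and 7.78 inside, and in Cdh13 -5.92, -5.86 and -4.92. Positions with at least 10 CpGs within 100 bp were low in Ctnnd2 in all groups, at 7.54% in IFC, 7.04% in SO, 10.9% for SOA and 10.8% for IV, while its other positions had 42.8, 41.4, 27.3 and 29.0%. The CpG-dense positions of Cdh2 were at 0.909 to 2.40%. Those of Cdh13 (41 to 183 positions per library) were at 16.2% ± 7.91 in IFC and 36.4% ± 17.9 in SO, and IFC minus SOA was -17.4 points there against -9.92 at its CpG-poor positions. In exons of Ctnna2 (31 to 119 positions) IFC minus SOA was 15.3 points against 9.39 in its introns. These values are descriptions without a test.

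The largest range between group means in the 500 kb on each side was smaller than that inside the gene for some members only. The largest range of group means in a bin was 31.2 points inside Cdh13 against 6.84 before and 13.6 after it, 26.3 inside Ctnnd2 against 10.3 and 11.8, and 32.6 inside Cdh8 against 16.1 and 8.44. It was 19.7 inside Ctnna3 against 8.97 and 8.32, and 30.7 inside Cdh18 against 9.01 and 12.0. Ctnna2 had a bin before it with a range nearly as wide as its own (36.7 against 37.8). For Cdh2 (22.7 inside, 29.997 after), Cdh4 (6.46 inside, 10.2 before, 15.4 after) and Cdh12 (13.0 inside, 14.3 before, 16.1 after) the bins outside had the wider ranges. These are maxima over 10 bins on each side and over 5 (Cdh2) to 32 bins (Ctnna3) inside. The maxima inside Cdh13 and Ctnnd2 rest on IFC or SOA values, which had chosen these genes, so nothing is read from them.

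Of the wider family, 34 further cadherin, desmosomal cadherin and catenin genes were listed and 33 had enough covered positions. The list held beta-catenin, alpha-catenin 1, the plakophilins and other cadherins, and Dsg1a was the gene not measured. In IFC vs SO, 1 of 33 was lower and 0 higher (0.432% of all gene bodies were called): Cdh17, an intestinal cadherin, with 83.2, 76.7, 80.3 and 80.1% in IFC and 88.9 to 98.3% in SO (-13.2 ± 2.24 points, adjusted p = 0.0166, limma). In IFC vs SOA, 1 was higher and 2 were lower (3.71% of all were called). Cdh6, a type II cadherin, was at 30.6% ± 5.15 in IFC and 17.4% ± 1.65 in SOA, Cdh17 at 80.05% ± 2.67 and 96.3% ± 1.37, and Dsg4, a desmosomal cadherin, at 44.5% ± 5.12 and 65.5% ± 13.4 (adjusted p = 0.00838, 0.000937 and 0.0439, limma). The SOA values of Dsg4 ranged from 49.0 to 79.1% and met the IFC range of 38.9 to 51.3%. None of the 33 was called in the other 4 comparisons. Their median difference was 0.851 points in IFC vs SO and -0.809 in SO vs IV, against 0.627 and 0.840 over all gene bodies.

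Likeness to the gene-body levels of Cdh13 over the 16 libraries was measured for 5382 genes with at least 100 covered positions in every library, and the genes that followed it most closely included Lmntd1 (Pearson r = 0.956), Nek11 (0.945), Cpne8 (0.940) and Osbpl6 (0.940). Cpne8 had 38.9% in IFC, 46.3% in SO, 58.6% for SOA and 54.5% for IV. The genes closest to Ctnnd2 were Rad51b (0.974), Diaph2 (0.972), Klf12 (0.969), 1700025G04Rik (0.969) and Zbtb20 (0.966). Klf12, which encodes a zinc-finger transcription factor, had 35.04, 33.1, 9.36 and 11.8%. The points share libraries, groups and depth, so these r values describe likeness alone and have no p.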

How the data were processed

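PBAT (post-bisulfite adapter tagging) libraries of MII oocyte pools were trimmed with Trim Galore 0.4.4 and cutadapt 1.9.1 and mapped to GRCm38 with Bismark 0.19.0, per the labels, and duplicates were removed by the authors. For each CpG position and strand with a call, the deposited files give a methylation percent and, as counts, how many calls were methylated and unmethylated, and the authors applied no normalization. Most covered positions (65.5 to 91.5% per library) had a single call, so positions were averaged over gene bodies, 50-kb bins and tiles of 100 CpGs.

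Gene bodies (GENCODE M21) and bins of genes of at least 100 kb needed 20 covered positions in every library. Their percentages were fitted with limma 3.58.1 (R 4.3.3) in 1 model with 4 group means and no covariate, with adjustment over all features at 0.05. Differences carry standard errors of this fit. Exact two-sided permutation tests used the group means of a gene body. Tiles with at least 5 positions were tested with a logistic likelihood-ratio test, adjusted at 0.05 with at least 20 points, as the methods of the study describe for tiles. The scripts were tested on simulated data. Python 3.11.15, numpy 2.4.6, scipy 1.17.1, pandas 2.3.3 and matplotlib 3.10.9 were used.

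The members and lists were chosen with earlier results of these data known. Named genes were all members, each gene of the wider cadherin and catenin list with a called gene body, the 5 genes most like Cdh13 and Ctnnd2, and annotated genes that overlap or border a described stretch. Alternatives changed the summing of calls, the positions and libraries kept, the scaling, the test, the filters, the bin and tile borders and the replicate block, and left out each library. Replicate numbers were not used to pair the libraries in the main fit. Repeats of a family, non-CpG calls and expression were not analysed here, and 1 of the genes most like the members is not reported here.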

Additional observations from a re-analysis of the deposited data

Results flagged for a closer look

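Of the 27 sets of 4 or 5 libraries in which a member's gene body was examined, 2 held a library far from the rest of its group, and chance flags about 1 in 20 such sets. In Cdh4, IFC4 had 74.2%, whereas the other IFC libraries had 77.6 to 77.9%. In Cdh8, SO2 had 75.9%, whereas the other SO libraries had 63.2 to 66.4%. Neither library had been set apart by the labels.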

How the results depend on the processing

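No tested difference changed its direction past the threshold, and the untested differences of Cdh13 and Ctnnd2 have no threshold. The 7 called gene-body differences kept their direction under all alternatives, as did 38 of all 54 differences. Of 954 alternative values of differences, 898 counted as unchanged. For tested differences this means staying on their side of the threshold. For the untested differences of Cdh13 and Ctnnd2 it means a shift smaller than the SD within the 2 groups. Calls depended on the tool and on few libraries. A logistic test of the calls called 5 members in IFC vs SO, 4 in SO vs SOA, 2 in SOA vs IV, 6 in IFC vs SOA, 7 in SO vs IV and 5 in IFC vs IV, where it called 23.9 to 41.7% of all gene bodies. With only libraries below 10 M calls, 0 members were called in SO vs SOA (Cdh8, 21.5 points) and 0 in IFC vs SOA (Cdh8, 14.4; Ctnna2, 9.20). With only those above, 0 were called in SO vs IV (Ctnnd2, 10.2; Cdh8, 14.8). A fit to only the 2 groups compared called 1 member in IFC vs SOA (Ctnna2 lost, 9.52), 1 in SO vs IV (Ctnnd2 lost, 11.7) and 1 in IFC vs IV (Ctnna2 lost, 8.21).

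SO vs IV had 1 call, without Ctnnd2, with pooled calls (11.5 points), thinned libraries (11.05) and at least 5 positions (11.7). IFC vs IV had 1 call, without Ctnna2, with pooled calls (7.99), reference CpGs only (8.01), thinned libraries (7.49), centring on the library mean (6.32) and at least 5 positions (8.21). The 21 pairs of libraries with the same replicate number correlated at -0.158 to 0.162 and 2 exceeded 0.1. Pairs with different numbers were not compared, so these values cannot show whether replicate numbers pair the libraries. With a replicate block, SO vs IV had 1 call (Ctnnd2, 12.3, lost), IFC vs IV had 1 (Ctnna2, 8.34, lost) and IFC vs SO had 3 called bins.

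Leaving out 1 library gave 0 to 2 called members in SO vs IV and in IFC vs IV, with 0 without IV2 in both. Ctnnd2 in SO vs IV stayed at 10.2 to 14.1 points, Cdh8 at 15.3 to 18.9 (lost without IV2), Ctnna2 in IFC vs IV at 7.14 to 10.0 (lost without IFC1, IFC2, IFC3, IV2 or IV3) and Cdh8 at 14.0 to 16.1 (lost without IV2). Called bins were 2 to 4 in IFC vs SO, where leaving out IFC4, SO1, SO2 or SO3 left 2, 7 to 15 in SO vs IV (7 without IV1) and 7 to 16 in IFC vs IV (7 without IV2). Bins shifted by 25 kb gave 3 calls in IFC vs SO and 14 in SO vs SOA, and a fit to the 2 groups gave 1 in IFC vs SO.

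For tiles, in the order of comparisons above, a limit of 30 points left 0, 3, 0, 12, 7 and 9 calls and a minimum of 20 positions 2, 1, 0, 4, 19 and 11. Limma on tiles gave 0 calls in IFC vs SO and SOA vs IV, 12 in SO vs SOA and in IFC vs IV and 7 in SO vs IV. Thinning gave 2 in SOA vs IV. Without 1 library the counts were 4 to 9 in IFC vs SO (9 without IFC1) and 0 to 3 in SOA vs IV. The cause of these changes was not tested. Positions with at least 3 calls left no member with 20 positions in every library. Single bins and gene bodies of shallow libraries rest on few positions, and 1 library removed from IV leaves 2.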

Other observations

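Bins outside the genes also differed between groups. The 50-kb bin from 500 kb before Ctnna2 (chr6:78429700-78479699) had 41.6% ± 5.18 in IFC (SD, n = 4), 59.5% ± 7.54 in SO (n = 5), 78.3% ± 5.52 in SOA (n = 4) and 76.7% ± 1.79 in IV (n = 3), the opposite order to the bins 100 to 300 kb into the gene. The bin from 300 kb after the start of Cdh2 (chr18:16459247-16509246), which lies beyond the end of that gene, had 12.4% ± 5.34 in IFC, 31.95% ± 11.9 in SO, 42.2% ± 6.98 for SOA and 42.4% ± 2.67 for IV. Both bins were picked for their values among the bins around the 9 genes and were not tested.

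A second start of Cdh4, 1.80 kb into the gene, was partly methylated in the 1000 bp before it. Pooled calls gave 14.4% in IFC (22 of 153 calls, 95% Wilson interval 9.69 to 20.8%), 34.6% in SO (81 of 234, 28.8 to 40.9%), 31.5% in SOA (39 of 124, 23.9 to 40.1%) and 18.8% in IV (25 of 133, 13.1 to 26.3%). The intervals cover counting error and leave out the spread between pools, so no test is given.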
